A study of Mus musculus with 39 samples.

Results

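The genes Magef1, Mrgprg, Nr1i3, Klra1, Golt1a, Cd4, Tlr7, Cnr2, Tat and Dcaf12l2, best known from differentiated tissues, were followed over 39 single-colour microarrays of mouse oocytes and preimplantation embryos. These 10 genes were chosen by their signal on the same arrays, which had risen after both of 2 histone deacetylase inhibitors (HDACi), and their HDACi responses are given as a description and were not tested. They were found by the gene name in the scanner output, which gave 15 of the 55681 probes on the array and 10 of its 22328 named genes. All 10 genes had at least 1 probe that passed the filter on low signals, and 12 of the 15 probes passed it.

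The arrays covered 13 conditions with 3 arrays each, every array holding pooled RNA of 100 oocytes or embryos. All mice were labelled B6D2F1 x ICR, and per the study's methods embryos came from in vitro fertilization of oocytes of 8- to 9-week-old B6D2F1 females with sperm of 15- to 20-week-old ICR males. Untreated controls were germinal vesicle (GV) oocytes, MII oocytes, and 1-cell, 2-cell, 4-cell, 8-cell, morula and blastocyst embryos. Treated zygotes were kept in 10 µM T247 (an inhibitor aimed at HDAC3) or 10 µM MGCD0103 (an inhibitor of Class I HDACs) for 6 h from 4 h post insemination (hpi), then returned to the culture of normal zygotes, and collected at the 1-cell (12 hpi), 2-cell (24 hpi) or, for T247 only, 4-cell stage (48 hpi). No vehicle is named for the controls in the sources used here, and each array is 1 pool. The p-values and SEs below rest on the spread between arrays. That spread holds the one between pools and, where the arrays of a condition lay on different slides, the one between slides.

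Histone deacetylases remove acetyl groups from histone tails, and their loss or inhibition leaves chromatin more acetylated and often more accessible to transcription. The embryo starts from a store of maternal RNA, clears it, and switches on its own genome in a minor wave in the zygote and a major wave in 2-cell embryos. The genes described here are known from other cells: receptors of T cells, natural killer cells and B cells, a nuclear receptor and a metabolic enzyme of the liver, and members of the MAGE, Golgi transport and ubiquitin ligase receptor families.

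Of the 10 probes that represent these genes, 6 carried an unbroken alternation of a pair of bases, and their sequences are shown because the later comparison of probes turns on them. The lines give 30 bases of each 60-base probe as printed in the scanner output, 5′ to 3′, the first 30 in each case, with capitals marking an alternation of at least 8 bases.

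Magef1: GTGTGTGTGTaagcttatttgatgccgagc
Golt1a: taagGTGTGTGTGTGTatatgatctatgta
Dcaf12l2: GTGTGTGTGTGagtgatttattttcaaagt
Klra1: tgcagtgcaaAGAGAGAGAGAGAaaatctg
Mrgprg: gagagaAGAGAGAGctaagcttccaaagta
Tlr7: TCTCTCTCTCTgatactgaactgtaccaga
Nr1i3: aagagaagagatagatcagctacaagagga
Cd4: gcccactccccactcctgcttcctgagctg
Cnr2: ccctcttctggtatgtttgaagagagcgat
Tat: gaagtcaccttggttcctgcctcacttcag

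Magef1, Golt1a and Dcaf12l2 shared a guanine-thymine alternation of 10, 12 and 11 bases. Klra1 and Mrgprg carried guanine-adenine alternations of 13 and 8 bases, and Tlr7 a cytosine-thymine alternation of 11 bases. The Nr1i3 probe had no alternation of 8 bases but an uninterrupted stretch of 11 adenines and guanines, and the probes of Cd4, Cnr2 and Tat had neither. A run of at least 10 bases was present in 5 of these 10 probes (50%), against 217 of the 15914 probes that represent a tested gene (1.36%). With runs of at least 8 bases the shares were 6 of 10 (60%) and 407 of 15914 (2.56%). These classes of runs were chosen after the sequences had been read, so the shares describe the 10 genes and carry no test.

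Per array, between 62.4% and 77.3% of signals were positive and significant, between 44.4% and 58.3% of the probes were well above background, and no probe was saturated. Within a condition, pairs of arrays correlated at 0.932 to 0.996 over the 15914 tested genes, and the lowest agreement was that of replicate 1 of the 2-cell controls (mean r 0.937 with the other 2-cell control arrays). Replicates 1, 2 and 3 of all 8 untreated stages lay on slides 1, 2 and 3, the T247 arrays on slide 4 with 2 of the 4-cell arrays on slide 5, and all MGCD0103 arrays on slide 6. Slide and HDACi therefore cannot be told apart, in the comparisons with controls and in that of MGCD0103 with T247. Oocyte markers fitted the labelled material: all 10, Zp3 and Gdf9 among them, were well above background in every condition up to the 8-cell stage. In pooled RNA, fewer expressing cells and less RNA per cell cannot be told apart.

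Of the 10 genes, 7 were already well above background in untreated oocytes and embryos, as read by the representing probe. Golt1a, Cd4, Tlr7, Cnr2, Tat and Dcaf12l2 were well above background on all 24 untreated arrays, and Magef1 on 22 of the 24. Mrgprg was well above background on 3, Nr1i3 on 7 and Klra1 on 11 of the 24 untreated arrays. On the 15 treated arrays every one of the 10 genes was well above background. The condition with the highest mean was a treated one for 9 of the 10 genes, the exception being Tat, whose highest mean was that of untreated morulae.

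**Figure D1:**
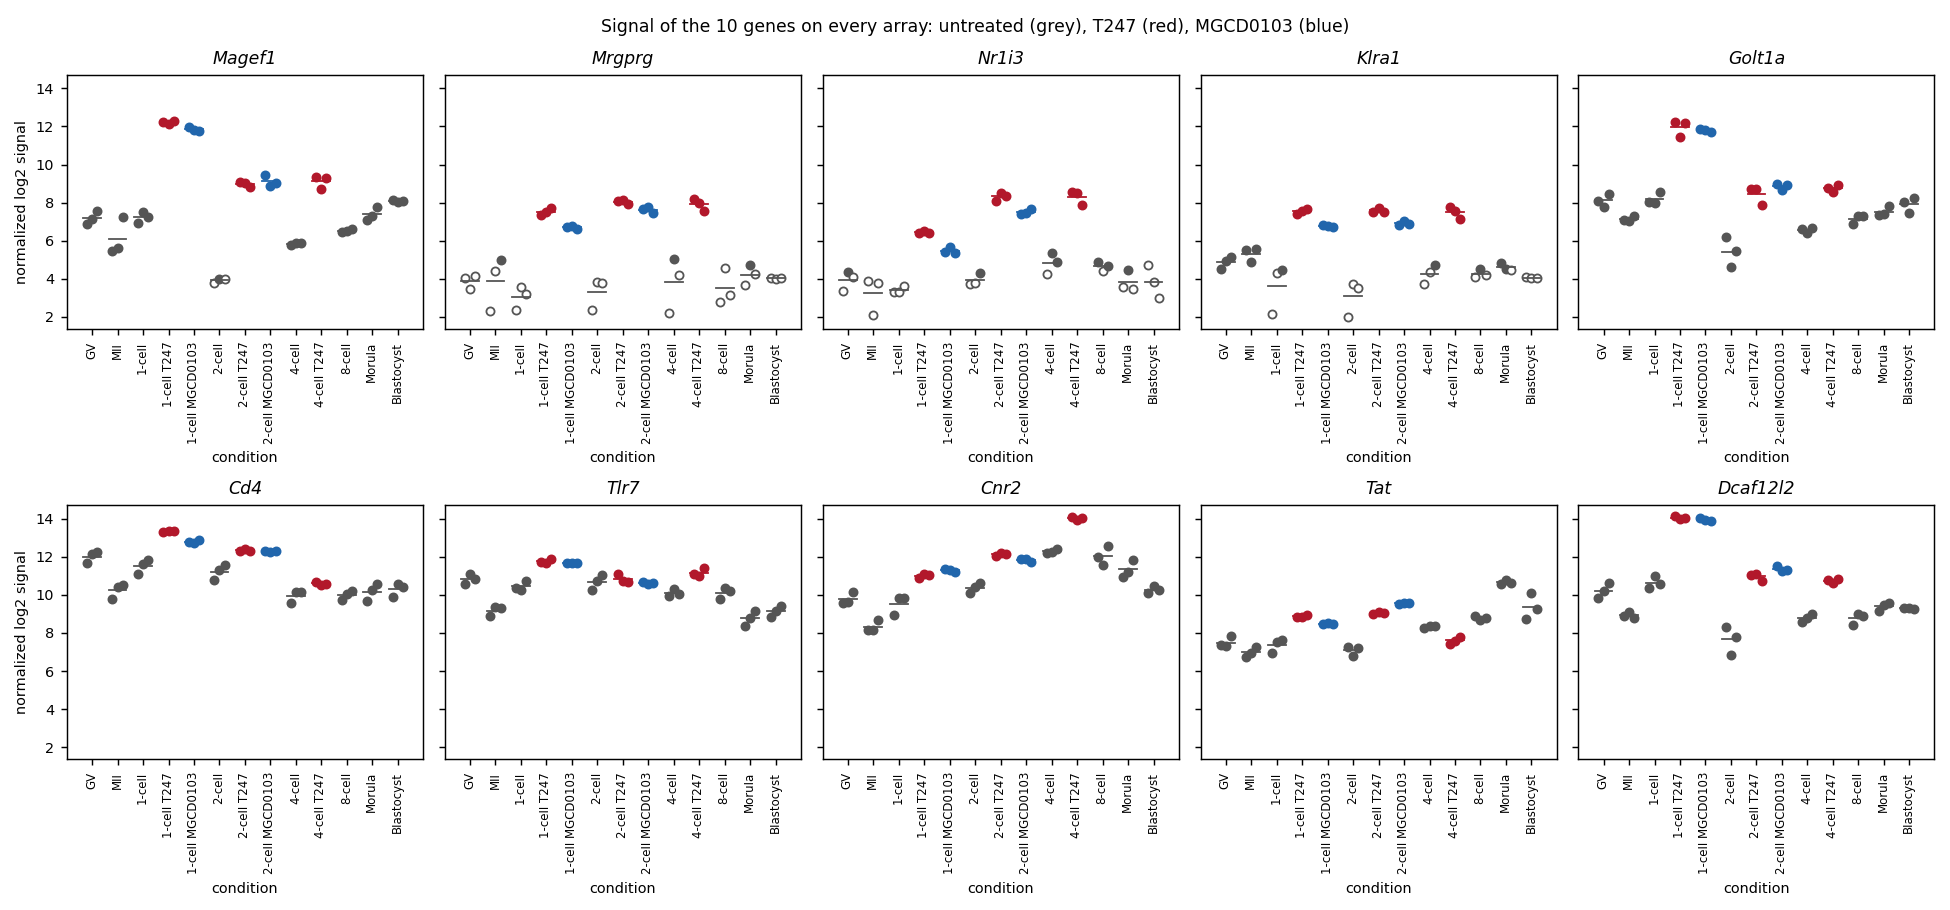
Normalized log2 signal (y axis) of the probe that represents each gene in the 13 conditions (x axis); each point is 1 array, untreated in grey, T247 in red and MGCD0103 in blue, open where the signal was not well above background, with a line at the mean. The treated points of Magef1, Mrgprg, Nr1i3 and Klra1 lie above all 24 untreated points, while Tat is highest in untreated morulae at a mean of 10.67.

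Responses are given as the LFC, the difference of mean normalized log2 signals of treated minus control arrays, with the standard error (SE) of a linear model over all 39 arrays and n = 3 arrays a group. In 1-cell embryos, all 10 genes had an LFC of at least 1 after T247 (median 3.23, range 1.32 to 5.0) and after MGCD0103 (median 2.62, range 1.12 to 4.62), with no overlap between treated and control arrays. Of all 15914 genes, 6.20% and 3.94% were higher by these criteria. The share of all 15914 genes called either way by limma (an absolute LFC of 1 or more with the adjusted p below 0.05) was 6.16% for T247 and 3.86% for MGCD0103. In 2-cell embryos, 9 of the 10 genes reached an LFC of 1 with no overlap after T247 (median 3.17, range 0.17 to 5.06; 25.1% of all genes called, 8.77% higher by the former criteria) and after MGCD0103 (median 3.51, range -0.05 to 5.20; 27.7% and 10.4%). In 4-cell embryos after T247, 8 of 10 genes reached an LFC of 1 (median 2.08, range -0.73 to 4.10; 17.8% and 11.7%), and no gene overlapped its controls, 1 of them lying below (57.1% of all genes did not overlap, in either direction). The medians rest in part on the dim controls of Mrgprg, Nr1i3 and Klra1: they were 1.61, 1.29, 1.90, 1.61 and 1.66 in the same order with a normexp background, and 1.82, 1.77, 1.97, 2.48 and 1.74 under a stricter filter that leaves those 3 genes out. The medians over all genes were 0.00, 0.11, -0.26, 0.07 and 0.00 in the same order. Of the called genes 90.4%, 89.3%, 35.8%, 44.9% and 67.3% were higher, against 79.9%, 76.8%, 53.8%, 51.2% and 58.1% with quantile normalization and, in 2-cell embryos, 71.8% and 63.1% with 75th percentile scaling. The comparisons of T247 and of MGCD0103 share their control arrays. The choice of the genes used the comparisons with controls at all 3 stages, so a higher signal there is not an independent result.

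**Figure D2:**
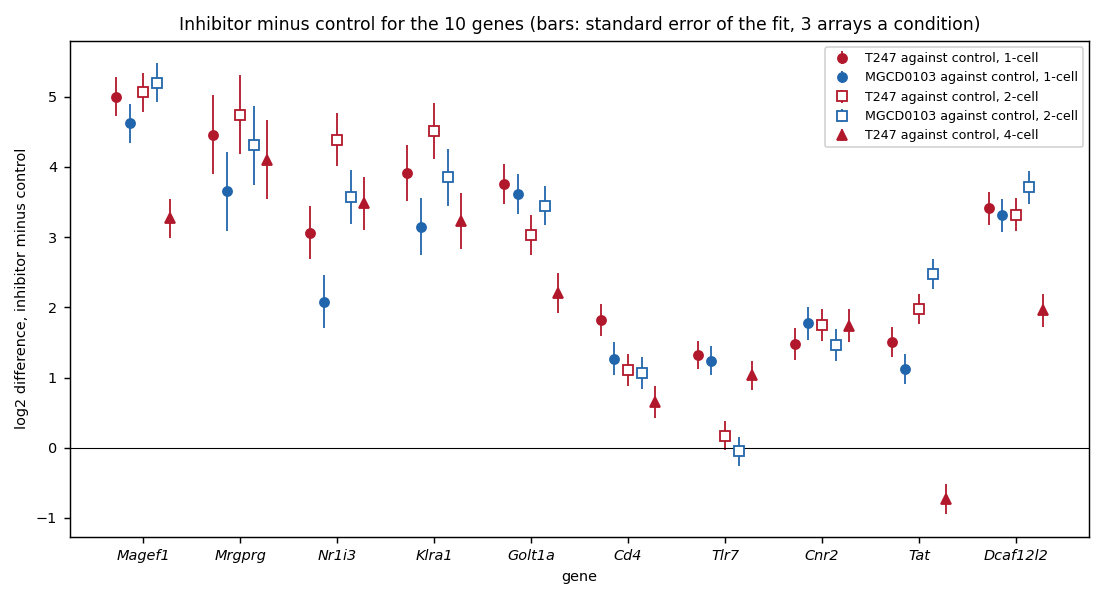
LFC of inhibitor minus control (y axis, log2) for the 10 genes (x axis), with 1 point per comparison and bars for the SE of the fit (3 arrays a condition). The points of Magef1 reach 5.20, those of Tlr7 lie near 0 in 2-cell embryos, and the 4-cell point of Tat is below 0. Where controls were not well above background (Mrgprg, Nr1i3 and Klra1, and Magef1 in 2-cell embryos) the LFC rests on a dim control signal.

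Magef1 belongs to the MAGE family, whose members bind E3 ubiquitin ligases, and its probe lies at chr16:21332081-21332140 on the minus strand of mm9, the build of the scanner output. No annotation of that build was used here, so exon, intron or UTR was not assigned for any probe, and the RefSeq table of GRCm38.p6 lists Magef1 as a transcribed pseudogene. Its 1-cell control arrays read 6.95, 7.49 and 7.27, its T247 arrays 12.24, 12.15 and 12.30, and its MGCD0103 arrays 11.96, 11.84 and 11.77. The LFC was 5.0 ± 0.276 (SE) after T247 and 4.62 ± 0.276 after MGCD0103, a 31.9-fold and a 24.5-fold higher signal. Its 2-cell controls read 3.78, 3.98 and 4.00, the lowest of all 13 conditions, and only 1 of those 3 arrays was well above background. After T247 the 2-cell arrays read 9.08, 9.04 and 8.83, and after MGCD0103 9.44, 8.87 and 9.05. The 2-cell LFC was 5.06 and 5.20, although the treated signal itself was lower than in 1-cell embryos. It rests on dim controls. Over 19 alternative settings it was as low as 2.84 and 2.90, against 4.47 and 4.07 in 1-cell embryos. In 4-cell embryos, controls of 5.78, 5.88 and 5.89 stood against T247 arrays of 9.34, 8.74 and 9.27. Among untreated stages Magef1 was highest in blastocysts, at 8.10 ± 0.06 (SD, n = 3), still below every treated array.

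Golt1a encodes a small membrane protein of Golgi vesicle transport, and its probe lies at chr1:135219463-135219522 on the plus strand. Its 1-cell controls of 8.04, 7.99 and 8.55 compared with 12.23, 11.44 and 12.20 after T247 and 11.89, 11.80 and 11.71 after MGCD0103. The LFC was 3.76 and 3.61, 13.6-fold and 12.2-fold. As with Magef1, the untreated signal was lowest in 2-cell embryos, where the 3 controls of 6.17, 4.6 and 5.46 spread widely. The 2-cell T247 arrays read 8.71, 8.71 and 7.89 and the MGCD0103 arrays 8.99, 8.67 and 8.91, LFCs of 3.03 and 3.45. The 2-cell MGCD0103 arrays lay above all 24 untreated arrays, of which the highest read 8.55, whereas the lowest T247 array lay below it. In 4-cell embryos the LFC after T247 was 2.20 (8.79, 8.56 and 8.95 against 6.59, 6.43 and 6.68).

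Dcaf12l2 is a relative of DCAF12, a WD40-repeat substrate receptor of CUL4 ubiquitin ligases, and has 2 probes on the array, both on the minus strand of the X chromosome. The representing probe (chrX:41719612-41719671) read 10.38, 10.98 and 10.58 in 1-cell controls, 14.12, 13.99 and 14.05 after T247, and 14.04, 13.95 and 13.88 after MGCD0103. The LFC was 3.41 and 3.31, 10.6-fold and 9.93-fold. In 2-cell embryos its controls of 8.32, 6.84 and 7.81 were again its lowest condition, and the LFC was 3.32 after T247 and 3.71 after MGCD0103. In 4-cell embryos it was 1.96, with treated arrays of 10.79, 10.63 and 10.84, which overlapped the range of untreated 1-cell arrays. The second probe (chrX:41719459-41719518) begins with an alternation of 24 bases, in capitals here.

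Dcaf12l2 second probe: GAGAGAGAGAGAGAGAGAGAGAGAtttcta

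On this probe all 15 treated arrays (8.54 to 9.56) lay above all 24 untreated arrays, and the LFC was 2.26 and 1.98 in 1-cell embryos, 2.72 and 2.41 in 2-cell embryos (T247 and MGCD0103), and 1.96 in 4-cell embryos. Both probes of Dcaf12l2 were thus higher after HDACi, and both carry a run.

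Klra1 encodes Ly49A, an inhibitory receptor by which natural killer cells read MHC class I, and its probe lies at chr6:130314070-130314129 on the minus strand. Its 1-cell controls read 2.13, 4.28 and 4.47, with only the last well above background, against 7.40, 7.55 and 7.66 after T247 and 6.84, 6.79 and 6.71 after MGCD0103. The LFC was 3.91 and 3.15. None of the 2-cell controls (1.97, 3.73 and 3.53) was well above background, and the signal was at least 11.8-fold higher after T247 (7.52, 7.73 and 7.52) and at least 7.45-fold higher after MGCD0103 (6.84, 7.05 and 6.89). These bounds set the treated mean against the lowest signal that counts as well above background on each control array. A control signal above that level was used as it stood. The bounds hold for the main processing only. Over 17 alternative settings the 2-cell LFC of Klra1 was as low as 1.82 after T247 and 1.34 after MGCD0103, under these bounds. The 4-cell LFC was 3.23, with 1 of 3 controls well above background. Untreated Klra1 cleared background on 3 of 3 arrays in GV oocytes (4.53, 4.96 and 5.13) and MII oocytes (5.51, 4.86 and 5.56), its highest untreated stages, and on none of the blastocyst arrays.

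Mrgprg, an orphan receptor of the Mas-related family that is otherwise known from sensory neurons, had its probe at chr7:150949651-150949710 on the minus strand. No 1-cell control (2.37, 3.59 and 3.21) and no 2-cell control (2.35, 3.82 and 3.79) was well above background. After T247 it read 7.34, 7.52 and 7.70 in 1-cell embryos, at least 9.29-fold higher, and 8.09, 8.15 and 7.93 in 2-cell embryos, at least 15.9-fold higher. After MGCD0103 it read 6.72, 6.76 and 6.64, at least 5.30-fold higher, and 7.68, 7.77 and 7.44, at least 11.9-fold higher. The treated arrays therefore formed a narrow band while the untreated ones scattered near background. In 4-cell embryos, T247 arrays of 8.17, 8.00 and 7.58 stood against controls of 2.19, 5.05 and 4.21, of which 1 was well above background. No untreated stage had Mrgprg well above background on more than 1 of its 3 arrays. The bounds above were not kept under every setting. Over 17 alternatives the LFC after T247 was as low as 1.62 in 1-cell and 2.02 in 2-cell embryos. After MGCD0103 it was as low as 1.07 and 1.65.

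Nr1i3 encodes the constitutive androstane receptor, a nuclear receptor that senses xenobiotics and induces cytochrome P450 genes in the liver. Its representing probe (chr1:173147776-173147835, plus strand) was not well above background on any 1-cell control (3.29, 3.29 and 3.62). After T247 it read 6.43, 6.5 and 6.43, at least 4.45-fold higher, and after MGCD0103 5.43, 5.65 and 5.37, at least 2.27-fold higher. Over 17 alternative settings these LFCs were as low as 0.94 and 0.46, under the bounds. In 2-cell embryos, controls of 3.75, 3.77 and 4.3 (1 of 3 well above background) stood against 8.11, 8.53 and 8.36 after T247 and 7.41, 7.48 and 7.65 after MGCD0103. The LFC was 4.39 and 3.57, and it was 3.48 in 4-cell embryos after T247 (8.56, 8.48 and 7.90, with 2 of 3 controls well above background). In contrast with the members that carry a guanine-thymine run, the treated signal of Nr1i3 was lower in 1-cell embryos than at the 2-cell or 4-cell stage.

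A second Nr1i3 probe on the same strand (chr1:173148765-173148824) did not pass the filter and had no run. Its signal cleared background in 4-cell controls (4.5, 5.24 and 5.75) and 8-cell controls (5.80, 5.65 and 6.13), each on 3 of 3 arrays, and on 1 morula array. On the 15 treated arrays it was never well above background, and in 4-cell embryos it read 3.39, 2.74 and 3.11 after T247, at least 3.32-fold lower. The probes of Nr1i3 thus went opposite ways in 4-cell embryos.

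Cd4, the coreceptor of helper T cells that binds MHC class II, was well above background on every array with its representing probe (chr6:124814711-124814770, minus strand). Its 1-cell controls of 11.10, 11.60 and 11.83 compared with 13.29, 13.33 and 13.36 after T247 and 12.77, 12.70 and 12.87 after MGCD0103, LFCs of 1.82 and 1.27. Its 2-cell controls of 10.78, 11.31 and 11.58 compared with 12.32, 12.39 and 12.30 after T247 and 12.30, 12.24 and 12.31 after MGCD0103, LFCs of 1.11 and 1.06. The 4-cell LFC after T247 was 0.65, under the threshold of 1 (10.69, 10.51 and 10.59 against 9.57, 10.13 and 10.15). All 1-cell and 2-cell treated arrays, but no 4-cell one, lay above the highest untreated array, a GV array at 12.23. The second Cd4 probe (chr6:124817706-124817765) was dim: it was well above background on all 3 arrays in GV oocytes and 1-cell controls only among untreated stages, and its 1-cell LFC, from 4.84, 4.98 and 5.11 to 5.48, 5.49 and 5.59 after T247, stayed under 1. On this probe the 2-cell LFC was 0.56 after T247 and 0.71 after MGCD0103. The 4-cell LFC after T247 was 1.19, with 2 of 3 treated arrays and no control well above background.

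Tlr7, the endosomal sensor of single-stranded RNA of dendritic and B cells, had its representing probe at chrX:163742863-163742922 on the minus strand. Its 1-cell controls of 10.36, 10.24 and 10.74 stood against 11.75, 11.65 and 11.90 after T247 and 11.68, 11.68 and 11.69 after MGCD0103, LFCs of 1.32 and 1.24. In 2-cell embryos the groups overlapped: controls of 10.26, 10.71 and 11.04, T247 arrays of 11.08, 10.74 and 10.69, and MGCD0103 arrays of 10.66, 10.59 and 10.61 gave LFCs of 0.17 and -0.05. The 2-cell LFC changed sign in 1 of 19 alternative settings for T247 and in 4 of 19 for MGCD0103. In 4-cell embryos T247 arrays (11.07, 10.97 and 11.39) lay above controls (9.95, 10.32 and 10.06), an LFC of 1.03. The other Tlr7 probes (chrX:163743146-163743205 and chrX:163747214-163747273), neither of which holds a run, were not well above background on any of the 39 arrays.

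Cnr2, the cannabinoid receptor of immune cells, had its highest untreated signal in 4-cell embryos (12.21, 12.23 and 12.41). Its probe lies at chr4:135476052-135476111 on the plus strand. The 1-cell controls of 8.93, 9.83 and 9.82 compared with 10.87, 11.11 and 11.05 after T247 and 11.38, 11.30 and 11.20 after MGCD0103, LFCs of 1.48 and 1.77. The 2-cell controls of 10.12, 10.39 and 10.62 compared with 12.04, 12.18 and 12.14 after T247 and 11.88, 11.87 and 11.75 after MGCD0103, LFCs of 1.75 and 1.46. In 4-cell embryos T247 arrays of 14.10, 13.95 and 14.02 gave an LFC of 1.74. The LFC of Cnr2 was thus between 1.46 and 1.77 in all 5 comparisons.

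Tat, tyrosine aminotransferase, is the first enzyme of tyrosine breakdown in the liver, and its probe lies at chr8:112523207-112523266 on the plus strand. The 1-cell controls of 6.94, 7.55 and 7.61 compared with 8.83, 8.86 and 8.93 after T247 and 8.48, 8.51 and 8.49 after MGCD0103, LFCs of 1.51 and 1.12. In 2-cell embryos, controls of 7.24, 6.80 and 7.20 stood against 8.99, 9.11 and 9.03 after T247 and 9.53, 9.56 and 9.58 after MGCD0103, LFCs of 1.97 and 2.48. In 4-cell embryos the order turned: T247 arrays (7.41, 7.59 and 7.81) lay below controls (8.26, 8.38 and 8.36), an LFC of -0.73. Tat was the only one of the 10 genes with a negative LFC in 4-cell embryos, and no treated array reached the untreated morula arrays (10.58, 10.79 and 10.64).

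Whether the inhibitors differed was tested directly at matched dose and time, over 10 genes at each of 2 stages. The genes were chosen for a higher signal after both inhibitors on these same treated arrays, so the comparison is not independent of that choice and its p-values are given as a description. None of the 10 genes passed the threshold in 1-cell embryos (34 of 15914 genes called, 0.214%) or in 2-cell embryos (930 called, 5.84%; limma, Benjamini-Hochberg adjustment over all genes). Of the genes called in 2-cell embryos 54.7% were higher after MGCD0103, against 15.3% with 75th percentile scaling and 27.8% with quantile normalization. The medians of MGCD0103 minus T247 over the 10 genes were -0.38 and -0.14, against 0.10 and 0.25 over all genes. Nr1i3 had the most negative differences, -0.97 (95% interval -1.75 to -0.20, limma adjusted p = 0.431) and -0.82 (-1.60 to -0.05, adjusted p = 0.0935), with the arrays not overlapping at either stage. The interval of Cd4 in 1-cell embryos also lay below 0 (-0.55, -1.02 to -0.08, adjusted p = 0.503). For Tat in 2-cell embryos it lay above 0 (0.51, 0.07 to 0.95, adjusted p = 0.0647). For Magef1 the intervals were -0.95 to 0.19 and -0.43 to 0.70, for Golt1a -0.74 to 0.42 and -0.16 to 1.00, and for Dcaf12l2 -0.58 to 0.38 and -0.09 to 0.87. For Mrgprg they were -1.96 to 0.34 and -1.58 to 0.72, and for Klra1 -1.58 to 0.06 and -1.48 to 0.16 and so include differences of over 1 in size. For Tlr7 (-0.51 to 0.34 and -0.64 to 0.20) and Cnr2 (-0.18 to 0.76 and -0.76 to 0.18) the intervals stayed within 1. The unadjusted limma p was under 0.05 for 2 of the 10 genes (Nr1i3 and Cd4) in 1-cell embryos and for 2 (Nr1i3 and Tat) in 2-cell embryos. None of them passed after adjustment, and the inhibitors lay on different slides.

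**Figure D3:**
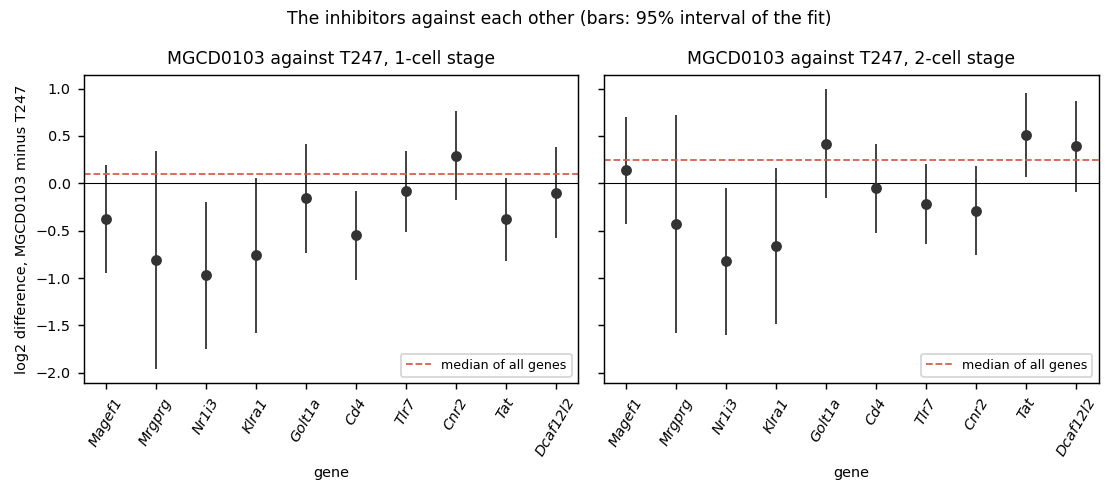
Difference of MGCD0103 minus T247 (y axis, log2) for the 10 genes (x axis) at the 1-cell and 2-cell stages, with bars for the 95% interval of the fit and a dashed line for the median of all genes (0.10 and 0.25). The intervals of Nr1i3 lie below 0 at both stages, and that of Tat lies above 0 in 2-cell embryos.

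Because the probes of 6 members carried a run, all kept probes, named or not, were compared by the run they hold, leaving out the probes of the 10 genes. Among 174 other probes with a guanine-thymine run of at least 10 bases, 58.6% were called higher after T247 and 51.7% after MGCD0103 in 1-cell embryos, against 7.48% and 4.54% of all 32766 kept probes (limma on all kept probes, same threshold). In 2-cell embryos the shares were 36.8% and 78.2%, against 8.79% and 11.8%, and in 4-cell embryos 13.8% against 12.7%. The medians of the LFC in this class were 1.12, 1.03, 0.75, 1.29 and 0.27. Among 44 probes with a guanine-adenine run of at least 10 bases the shares called higher were 59.1%, 52.3%, 59.1%, 52.3% and 50% in the same order. With runs of at least 8 bases, the length in the Mrgprg probe, they were 25.2%, 21.6%, 28.1%, 25.9% and 29.5% of 139 guanine-adenine probes, and 46.2%, 37.8%, 28.7%, 55.6% and 19.4% of 320 guanine-thymine probes.

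Among runs of at least 10 bases, those of the other base pairs had lower shares called higher. Of 53 probes with a cytosine-thymine run, the class of the Tlr7 probe, 9.43% and 9.43% were called higher in 1-cell embryos, 1.89% and 3.77% in 2-cell embryos and 13.2% in 4-cell embryos. In 2-cell embryos 37.7% and 45.3% of this class were called lower, against 15% and 14.3% of all kept probes. Of 92 probes with a cytosine-adenine run, 2.17%, 2.17%, 3.26%, 3.26% and 5.43% were called higher. With runs of at least 8 bases the shares were 13%, 9.09%, 5.84%, 5.84% and 20.8% of 154 cytosine-thymine probes. They were 4.88%, 1.95%, 4.88%, 5.85% and 8.78% of 205 cytosine-adenine probes. In 4-cell embryos the cytosine-thymine share at this length was thus not below the guanine-thymine share of 19.4%. Probes without any run of 8 bases (31947) had shares of 6.98%, 4.10%, 8.53%, 11.3% and 12.5%. They make up most of the kept probes, so these shares had to lie close to those of all probes. The probes of a class share sequence, so they are not independent, and the classes were not compared by a test.

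**Figure D4:**
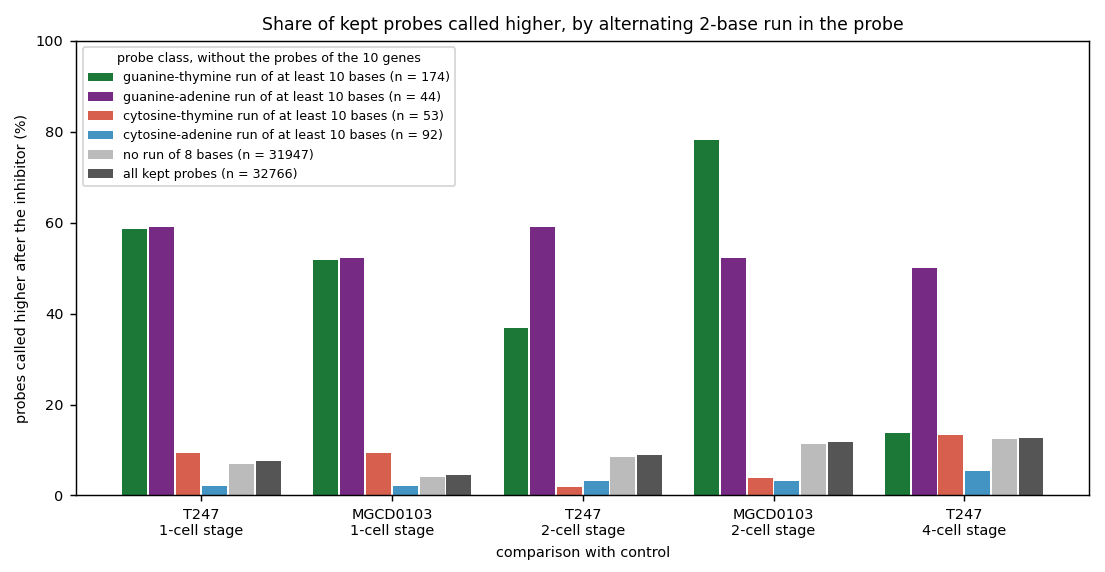
Share of kept probes called higher (y axis, percent) in the 5 comparisons with controls (x axis), by the alternating run in the probe, without the probes of the 10 genes. The bars of guanine-thymine and guanine-adenine runs of at least 10 bases reach 78.2% and 59.1%. Those of cytosine-thymine and cytosine-adenine runs of that length do not exceed 13.2%.

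For 68 other genes the array held a kept probe with a guanine-thymine or guanine-adenine run of at least 10 bases and another kept probe of the same gene without any run of 8 bases (several probes of a kind were averaged). The median LFC of the probes with a run was 0.97 and 0.91 in 1-cell embryos (T247 and MGCD0103), and that of the other probes of the same genes 0.04 and 0.14. In 2-cell embryos the medians were 0.69 against -0.23 and 1.23 against 0.15, and in 4-cell embryos 0.30 against -0.06. An LFC of at least 1 was reached by 34 and 28 of the run probes in 1-cell embryos, and by 4 and 1 of the others. The run probe had the higher LFC in 59, 60, 56, 56 and 51 of the 68 genes over the 5 comparisons. The part that the runs have in the signals of the 10 genes was not tested.

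**Figure D5:**
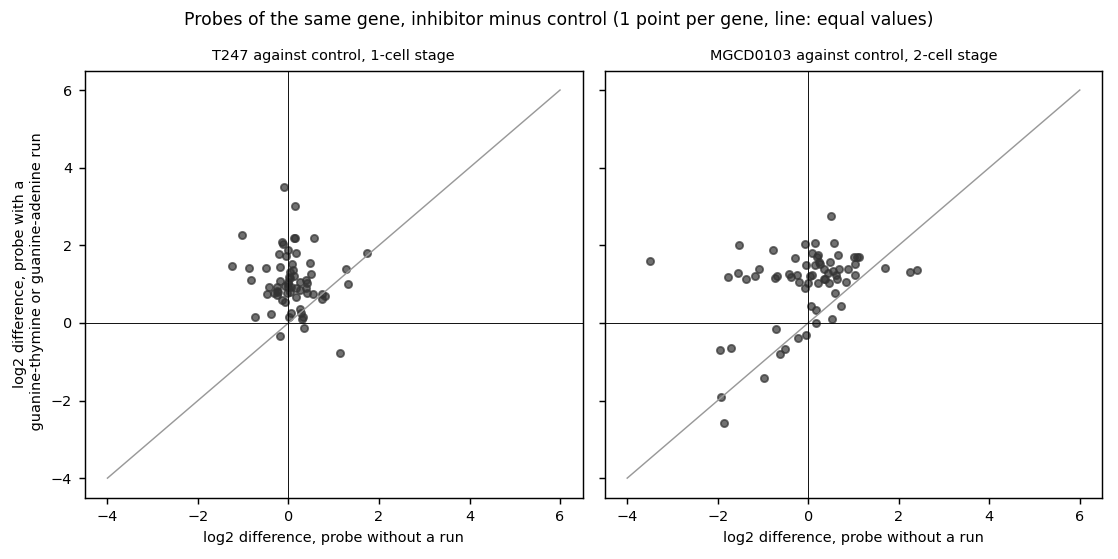
LFC of the probe with a guanine-thymine or guanine-adenine run (y axis, log2) against that of a probe of the same gene without one (x axis, log2), 1 point for each of 68 genes, after T247 in 1-cell embryos and after MGCD0103 in 2-cell embryos; the line marks equal values. The points lie above the line in 59 and 56 of the 68 genes.

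The Cnr2 probe had no run but resembled 13 probes of other genes, at 75% or more identical bases over at least 30 bases. All 13 were kept, and 4, 7, 4, 6 and 5 of them were called higher in the 5 comparisons. The order was T247 and MGCD0103 in 1-cell embryos, both again in 2-cell embryos, and T247 in 4-cell embryos. These are 30.8%, 53.8%, 30.8%, 46.2% and 38.5%, against 7.48%, 4.54%, 8.79%, 11.8% and 12.7% of all kept probes. The median LFCs were 0.87, 1.01, 0.84, 0.98 and 0.95, against 0.05, 0.13, -0.23, 0.06 and 0.06 over all kept probes. The probes of Zfp658, a zinc finger gene, and Luc7l2, a splicing factor gene, were among the 13. They also had the condition means most like those of Cnr2 in the whole table (Pearson r 0.989 and 0.983 over the 13 conditions). Capitals mark the bases identical between the probes.

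Cnr2 beside Luc7l2: CcCTCTTCTGGTaTGTtTGAAGAGAGcGat
Luc7l2: CaCTCTTCTGGTgTGTcTGAAGAGAGtGtc
Cnr2 beside Zfp658: cccTCTTCTGGTaTGTtTGAAgagAGCGAt
Zfp658: TCTTCTGGTgTGTcTGAAagcAGCGAcaGT

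The match covered 30 of 37 bases for Luc7l2 and 44 of 57 for Zfp658. Whether transcripts other than Cnr2 bind this probe was not tested.

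Of the 23 genes outside the list whose condition means ranked among the nearest 3 of a member, 8 had a representing probe with a run of at least 8 bases, against 2.56% of all tested genes, and 15 had none. The probes of 3 with a run are printed with it in capitals, the last 30 bases for Tbx22 and the first 30 for the others.

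Vax2: GTGTGTGTGTctgagtatgtatgtgtcact
Tbx22: aaggaaagagaaAGAGAGAGAGAGAGAGAG
Wfdc13: CTCTCTCTCTggatcagcttgctcatcatt

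Golt1a and Dcaf12l2 were each other's closest gene (r 0.984 over 13 condition means), and Magef1 was followed by Golt1a (0.976) and by Vax2, a homeobox gene (0.969). Among the nearest 3 genes of Klra1 were Tbx22, a T-box gene (0.965), and Mrgprg (0.962). Tlr7 was followed by Wfdc13 (0.977) and Srpx2 (0.974), whose probes both begin with a cytosine-thymine run of 10 bases. The nearest genes of Mrgprg (4933405E24Rik, 0.993, and Zfp36l3, 0.985), Cd4 (Car7, 0.976), Nr1i3 (Rergl, 0.969) and Tat (Cidec, 0.893) held no run of at least 8 bases. The third nearest of Mrgprg, Scn3b (0.976), held a guanine-adenine run of 11 bases. The probes of 4933405E24Rik and Rergl held uninterrupted stretches of 15 adenines and guanines. Those of Zfp36l3, Car7 and Cidec held no such stretch with at least 4 guanines. Over the 45 pairs of members the correlation of condition means ranged from -0.274 to 0.984 with a median of 0.58. These correlations share the 39 arrays and their treated slides, and are given without a test.

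Relatives and partners of the 10 genes were counted from lists for each family, and most of those tested did not follow the members. Relatives that failed the filter on low signals were not tested. Of the genes on the array, 3 of 25 natural killer receptors, 6 of 20 Mas-related receptors and 11 of 24 Toll-like receptor genes were tested. All 22 Golgi transport genes and all 17 genes of the DCAF12 list were tested. In the MAGE list 14 genes were tested and 1, 2, 1, 2 and 1 were called higher in the 5 comparisons (T247 and MGCD0103 in 1-cell embryos, the same in 2-cell embryos, and T247 in 4-cell embryos), while 0, 0, 1, 0 and 3 were called lower. Of all genes, 5.57%, 3.45%, 8.99%, 12.4% and 12% were called higher, and 0.591%, 0.415%, 16.1%, 15.3% and 5.83% lower. Magel2, a MAGE gene of the hypothalamus whose probe holds a guanine-thymine run of 8 bases, rose by an LFC of 1.87 after T247 and 1.55 after MGCD0103 in 2-cell embryos (limma adjusted p = 0.00262 and 0.0112). In 1-cell embryos, where no control was well above background, Magel2 was at least 2.42-fold and 1.55-fold higher (limma adjusted p = 0.000737 and 0.0164). It did not pass in 4-cell embryos (0.76, limma adjusted p = 0.229). Magea3, a MAGE gene of the germ line, was at least 4.03-fold lower in 4-cell embryos after T247 (adjusted p = 2.03e-06), where no treated array was well above background.

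For T cell receptor and coreceptor genes, 4, 3, 6, 4 and 4 of 14 were called higher and 0, 0, 1, 1 and 0 lower, with medians of 0.55, 0.76, 0.30, 0.40 and 0.49. Cd3e, a signalling subunit of the T cell receptor, passed in all 5 comparisons, with LFCs of 1.56, 1.31, 1.74, 1.87 and 1.23 (limma adjusted p between 1.7e-10 and 1.78e-06), and was well above background in all controls. Lck, the kinase bound by Cd4, rose by 1.67 in 1-cell embryos and by 1.70 in 4-cell embryos after T247 (adjusted p = 0.00598 and 0.00202) and fell by 1.36 in 2-cell embryos after MGCD0103 (adjusted p = 0.00962), where its controls spread widely (SD 1.85).

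Among 19 xenobiotic nuclear receptors, partners and targets of Nr1i3, 4, 0, 2, 3 and 3 were called higher and 0, 0, 1, 0 and 0 lower. Cyp2b10, the classical target of Nr1i3 in the liver, rose by 1.76 and 2.06 in 2-cell embryos (adjusted p = 0.001 and 0.00019) and was at least 3.94-fold higher in 4-cell embryos (adjusted p = 1.18e-05), where its controls were not well above background. Cyp3a11, a further target, was called higher in 3 of the 5 comparisons but was not well above background on more than 1 array of any of these groups.

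Toll-like receptor genes and their partners (11 tested) had 0, 0, 1, 1 and 0 higher and 0, 0, 4, 3 and 0 lower. Unc93b1, the chaperone that delivers Tlr7 to endosomes, rose by 2.03 and 1.57 in 2-cell embryos (limma adjusted p = 1.45e-09 and 1.54e-07), the stage at which Tlr7 itself had LFCs of 0.17 and -0.05. Ticam1, an adaptor of other Toll-like receptors, fell by 1.5 and 1.59 there (adjusted p = 7.24e-05 and 3.96e-05). Of 22 Golgi transport genes 0, 0, 0, 1 and 0 were called higher and 0, 0, 4, 3 and 4 lower. Rab1a, a small GTPase of transport to the Golgi, fell by 1.32 and 1.94 in 2-cell embryos (adjusted p = 4.76e-10 and 1.72e-13), opposite in sign to Golt1a.

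Of 17 genes of the DCAF12 family and the CUL4 ligase, 0, 0, 1, 3 and 0 were called higher and 0, 0, 2, 2 and 2 lower. Dcaf12l1, the closest relative of Dcaf12l2 on the X chromosome, fell by 2.52 in 4-cell embryos after T247 (limma adjusted p = 9.75e-05) and by 1.56 in 2-cell embryos after MGCD0103 (adjusted p = 0.00742), where its controls spread widely (SD 1.77). Of 6 Mas-related receptors 2 were called higher, both in 4-cell embryos, and none lower. Of these, Mrgpra2a was not well above background on any treated or control array there. Mrgprd was at least 1.78-fold higher, with no control well above background. Of 3 natural killer receptors 1 was called lower in 2-cell embryos after T247, 1 higher and 1 lower after MGCD0103, and 1 lower in 4-cell embryos. Endocannabinoid genes (9 tested) had 2 higher and 2 lower in 4-cell embryos and 1 lower in 2-cell embryos after MGCD0103. Enzymes of phenylalanine and tyrosine breakdown (9 tested) had 2 lower in 2-cell embryos after T247, and 1 higher and 1 lower after MGCD0103. In these last lists no other gene passed in the 5 comparisons.

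Markers of blood and immune cells and of liver were read beside these results. Lyz2, Tyrobp and the globin gene Hbb-bs, and the liver genes Alb and Ttr, were not well above background on any of the 39 arrays, and Ptprc, the pan-leukocyte marker, was so on 2. In each condition between 5 and 7 of the 12 blood and immune markers, Cd3e and Csf1r always among them, were well above background on all 3 arrays. Of the 10 liver markers, between 2 and 5 were so in each condition. The sums below are of the processed signal before normalization, so the brightness of each array enters them, and controls and treated arrays lay on different slides. The summed signal of the 12 blood and immune markers on the array was 3870 to 5160 in 4-cell controls and 7150 to 10200 after T247. In 1-cell embryos it was 9230 to 12900 in controls, 12000 to 13500 after T247 and 13500 to 14700 after MGCD0103, and in 2-cell embryos 5900 to 12700, 11200 to 12500 and 10100 to 11900. The summed signal of 10 liver markers was 1090 to 1690 in 1-cell controls, 2200 to 2660 after T247 and 2010 to 2480 after MGCD0103. In 2-cell embryos the liver sum was 953 to 1270, 1500 to 1700 and 1760 to 2000, and in 4-cell embryos 560 to 947 in controls and 1050 to 1180 after T247. Their part in the results of the 10 genes was not tested.

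Untreated stages that the choice of the genes did not use allowed tests of their normal course. From GV to MII oocytes 5 of the 10 genes were called lower (49.3% of all genes called), Magef1 by 1.08, Cd4 by 1.76, Tlr7 by 1.67, Cnr2 by 1.47 and Dcaf12l2 by 1.26 (limma adjusted p = 0.00105, 6.28e-08, 2.2e-08, 1.56e-06 and 2.18e-05). The median of all genes was itself -0.98 here, and with 75th percentile scaling it was 0.47, with 0.31 for Magef1, -0.27 for Cd4, -0.19 for Tlr7, -0.01 for Cnr2 and 0.21 for Dcaf12l2, so that none of these 5 calls held. Of the called genes 0.765% were higher, against 61.1% with that scaling and 52.6% with quantile normalization. Klra1, with a difference of 0.44 here, was called higher under both (1.84 and 1.57). The values do not settle a direction for these genes from GV to MII.

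From the 8-cell to the morula stage 2 of the 10 genes were called (36.8% of all genes called). Tlr7 fell by 1.34 (9.78, 10.34 and 10.20 to 8.36, 8.78 and 9.16; limma adjusted p = 1.74e-06), on all 3 slides (-1.41, -1.55 and -1.04), and was called in 21 of 21 alternatives. Tat rose by 1.88 (8.87, 8.69 and 8.79 to 10.58, 10.79 and 10.64; adjusted p = 8.17e-09), on all 3 slides (1.71, 2.09 and 1.85), and was called in 20 of 21 alternatives, with 0.98 under quantile normalization. The median of all genes was 0.52, and of the called genes 82.5% were higher, against 41.6% with 75th percentile scaling and 50.8% with quantile normalization. The differences of Tlr7 and Tat kept their sign under both.

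From morula to blastocyst 2 of the 10 genes were called (26.8% of all genes called). Tat fell by 1.31 (to 8.71, 10.10 and 9.26; limma adjusted p = 6.6e-06) and Cnr2 by 1.07 (10.96, 11.21 and 11.84 to 10.12, 10.44 and 10.24; adjusted p = 0.000248). Within slides Tat fell by 1.87, 0.69 and 1.38 and Cnr2 by 0.84, 0.77 and 1.60. Without blastocyst replicate 1 neither call held (-0.99 for Tat and -1.0 for Cnr2, just under the threshold in size), and without morula replicate 3 Cnr2 was at -0.82. Of the called genes 71.8% were higher, against 55.9% with 75th percentile scaling and 53.0% with quantile normalization. Mrgprg, Nr1i3, Klra1, Golt1a and Cd4 passed in neither of these stage comparisons, and neither did Magef1 or Dcaf12l2, whose differences from 8-cell to morula were 0.86 and 0.62. From 8-cell to morula, however, Nr1i3 (-0.81) was called lower with 75th percentile scaling (-1.57), with quantile normalization (-1.08) and without morula replicate 2 (-1.12), and Cnr2 (-0.72) was called lower under both scalings (-1.51 and -1.32).

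Of the 10 genes, 6 had a promoter in the RefSeq table of GRCm38.p6 (250 bases before to 50 after the start), 7 promoters in all. Their median number of CpG dinucleotides was 3.0 (2 to 7), against 7.0 over all 32851 promoters, and their median GC content 51.7% against 52.7%. None held TATAAA on either strand, against 13.6% of all promoters. No further sequence of these promoters is shown, since no readout of this study bears on them.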

How the data were processed

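Total RNA of 100 oocytes or embryos per array was amplified, labelled with Cy3 and hybridized to an Agilent mouse 60-mer array. The deposited scanner files hold intensity values that the authors made with Agilent Feature Extraction (9.5.1.1 in the labels, 10.7.1.1 in the file headers), namely the processed signal, the mean signal and the background, with flags for detection. The values of 1-cell MGCD0103 replicate 1 have 3 significant digits only. The series table holds the authors' normalized log2 values of 19143 probes, whose scale was settled against the scanner values (r 0.998 to 1 with the same array, column medians 8.71 to 10.54), and it was used as an alternative. It holds 7 of the 10 genes.

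Here, log2 of the processed signal was normalized by a smooth quantile method over the 39 arrays, as in the study. Probes passed (32766 of 55681) if every one of the 8 control and treated conditions from 1-cell to 4-cell embryos had a positive, significant signal on 1 or more of its 3 arrays, and the probe with the highest mean represented its gene (15914 genes). The 2.74% of values there that failed this flag kept their deposited value. Probe names were taken from the scanner files. limma 3.58.1 in R 4.3.3 was fitted to all 13 conditions, with Benjamini-Hochberg adjustment over all genes; calls needed an absolute LFC of 1 or more with the adjusted p below 0.05. The fit was tested on simulated data. A gene at background in 1 group is given as at least N-fold. This sets its bright group's mean against the lowest signal well above background on each dim array, or that array's own signal if higher. The bound holds for the main processing only.

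The 10 genes, the family lists and the markers were chosen with earlier results of these data known. Named genes were the 10 genes, at most 2 genes per list (those called in most comparisons with controls) and the 3 genes most correlated with each of the 10, with further genes named where a value turned on them. Marker sums are of the processed signal before normalization. Markers of cumulus and granulosa cells (12 genes) summed to 12900 to 14300 in 4-cell controls and 8360 to 9930 after T247, and sperm markers (10) to 1510 to 1680 and 1340 to 1590. Markers of 2-cell genome activation (8) summed to 120000 to 155000 in 2-cell controls against 3800 to 5160 in 1-cell controls, and those of blastocysts (11) to 501000 to 644000 in blastocysts. Same-numbered samples did not deviate together in every pair, so replicate numbers were not used as pairs. Alternatives were other scalings (75th percentile, quantile), a normexp background with an offset of 50, a stricter filter, other handling of low signals and of several probes of a gene, the series table, slide or replicate as a block, fits to fewer arrays, and leaving out each array. The number of arrays limits the precision.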

Additional observations from a re-analysis of the deposited data

How the results depend on the processing

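The genes were chosen for a higher signal on these arrays, so a median LFC above 0 under other settings is no independent result. The median LFC of the 10 genes was above 0 in all 5 comparisons with controls under every setting run. Its size depended on how dim control signals were handled. In the order T247 and MGCD0103 in 1-cell embryos, both in 2-cell embryos and T247 in 4-cell embryos, it was 1.61, 1.29, 1.90, 1.61 and 1.66 with a normexp background, which raises dim signals. It was 1.82, 1.77, 1.97, 2.48 and 1.74 when probes had to be well above background in each of 8 conditions, and 1.82, 1.77, 1.96, 2.47 and 1.73 in the series table, both of which leave 7 genes without Mrgprg, Nr1i3 and Klra1. For T247 in 2-cell embryos it was 3.59 with 75th percentile scaling and 3.97 with quantile normalization, which also gave 2.34 and 4.04 for MGCD0103 at the 1-cell and 2-cell stages. For MGCD0103 in 1-cell embryos it was 2.30 with low signals filled in, 2.25 with them left missing and 2.36 with the mean of a gene's probes, which gave 2.95 for T247. Leaving out 1 array moved it between 2.22 and 2.75 for MGCD0103 in 1-cell embryos, 2.76 and 3.53 for T247 and 3.17 and 3.61 for MGCD0103 in 2-cell embryos. From GV to MII oocytes 2 of the 10 genes were called with 75th percentile scaling and 1 with quantile normalization; the sign turned for Magef1 (0.31 and 0.22), Dcaf12l2 (0.21 and 0.17) and, with the former, Mrgprg (1.51). From 8-cell to morula 4 were called with 75th percentile scaling, and from morula to blastocyst 0 to 2 when 1 array was left out. Under quantile normalization 1 gene passed the threshold between the inhibitors in 2-cell embryos, Nr1i3 (-1.21).

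Over all genes, in the same order of the 5 comparisons, 360, 242, 2327, 2688 and 1068 were called with normexp and 540, 348, 2644, 2826 and 1496 in the series table (10828 genes). The stricter filter gave 615 and 408 in 1-cell embryos and 1791 in 4-cell embryos. Between the inhibitors 7 and 279 genes were called with normexp, 7 and 501 in the series table and 17 and 569 with the stricter filter at the 1-cell and 2-cell stages, and in 1-cell embryos 86 in a fit to those arrays only and 16 to 30 without 1 array. From morula to blastocyst 2664 were called with normexp and 2592 in the series table. Except where the construction of the setting is given, the cause was not tested. With the replicate number as a block the medians of the 10 genes were 3.23, 2.62, 3.17, 3.51 and 2.08 and the calls of the 10 genes did not change; fits chosen after seeing the data, with the block in untreated arrays, where the number is also the slide, gave 5, 2 and 2 called genes for the 3 stage comparisons. Slide as a random block (consensus correlation 0.0688) gave the same calls of the 10 genes. The bounds given for Mrgprg, Nr1i3 and Klra1 were not kept under every setting. Dim signals limit these genes, whose LFCs rest on control signals near background. The 2-cell LFCs of Magef1 rest on such signals too.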
